A study of Mus musculus with 8 samples.

Results

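Genes of the NRF2 antioxidant pathway were followed in thymic epithelial cells, the stromal cells on which T cells mature. The group was a list of 10 genes chosen by name, Nfe2l2, Keap1, Nqo1, Slc7a11, Hmox1, Gclc, Gclm, Txnrd1, Srxn1 and Gsr. All 10 were found by Entrez identifier among the 27179 genes of the count files, and all 10 passed the filter on low counts. Polyadenylated RNA of C57BL/6 mice gave 8 libraries. They were 1 of Mcl1 knock-out (KO) cortical thymic epithelial cells (cTECs), 4 of wild-type (WT) cTECs, 1 of KO medullary cells (mTECs) and 2 of WT mTECs. The series calls them biological replicates. Mcl1 encodes an anti-apoptotic protein of the BCL-2 family. The labels do not give what deletes Mcl1, which part is deleted or the age of the mice. Each KO group is a single library, so its spread was taken from the WT libraries.

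NRF2, the transcription factor encoded by Nfe2l2, is held in the cytoplasm by KEAP1, an adaptor that hands it to a ubiquitin ligase for destruction. Oxidants and electrophiles modify cysteines of KEAP1, NRF2 then accumulates, and with a small MAF partner it binds antioxidant response elements near genes of glutathione and thioredoxin metabolism and of detoxification. Nqo1 is a widely used readout of the pathway, whereas Hmox1 and Slc7a11 also answer to other regulators, BACH1 and ATF4 among them.

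Total counts ran from 11516780 to 19171953 per library. Levels are given as normalized CPM, that is, counts scaled to a common library size with TMM factors. Mcl1 was at 8.23 CPM in KO cTECs, against 257 ± 32.3 CPM in WT cTECs (SD, n = 4), and at 78.7 CPM in KO mTECs, against 158 ± 64.2 CPM in WT mTECs (SD, n = 2). The library labelled KO mTEC thus kept 49.8% of the WT mean, which rests on WT mTECs 1 and 2 at 113 and 203 CPM. Mcl1 itself was not called in KO mTECs (log2 fold change -1.01 ± 0.36, SE, edgeR adjusted p = 0.538). In KO cTECs 4 of 10 cTEC markers were called higher (median log2 fold change 0.75), and their sum was 9661 CPM, against 4701 to 9770.2 CPM in WT cTECs. Foxn1, which is in the cTEC list but was also at 64.1 and 66.8 CPM in WT mTECs, was at 528 CPM in KO cTECs, against 104 to 147 CPM in WT cTECs. Ctsl, Tbata and Cd83 of the same list lay inside the WT cTEC range. Of 8 pan-epithelial markers 4 were called higher, with a sum of 9540.5 CPM in KO cTECs, against 5242 to 5925 CPM in WT cTECs. Of 10 mTEC markers 7 were called lower (median -7.63), and without the keratins Krt5 and Krt14 the other 8 summed to 6.30 CPM in KO cTECs, with Aire, Csn2, Ins2 and Trpm5 at no count, against 1374 to 1468 CPM in WT cTECs. These 8 summed to 2186 CPM in KO mTECs and 2133 to 2399.6 CPM in WT mTECs. Krt5 and Krt14 were at 895 and 1027 CPM in KO cTECs, each inside the WT cTEC range. With them the 10 mTEC markers summed to 1928.5 CPM in KO cTECs, against 3261 to 4139 CPM in WT cTECs. B cell markers summed to 3.79 CPM in KO cTECs, against 40.5 to 55.9 CPM in WT cTECs. Thymocyte markers summed to 42.7 CPM in KO cTECs, against 80.0 to 162 CPM in WT cTECs, with 3 of 12 called lower and 0 higher. Erythroid markers summed to 647 CPM in KO cTECs, against 22.0 to 118 CPM in WT cTECs, and to 1517 CPM in KO mTECs, against 45.4 to 97.1 CPM in WT mTECs. Fibroblast markers summed to 1134 CPM in KO mTECs, against 151 to 182 CPM in WT mTECs (median 3.47, none called), and in KO cTECs 2 of 8 were called higher. The part of these markers in the KO differences was not tested. WT cTEC 1 stood apart from WT cTECs 2 to 4 in 23 immediate-early and dissociation genes, as given beside Gclc.

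The 10 genes did not move as 1 block. In KO cTECs Nqo1 rose 4.08-fold, Slc7a11 fell to 5.45% of the WT mean and Hmox1 fell to 46.5%, while the other 7 members were not called. A call means an adjusted p under 0.05 in edgeR's quasi-likelihood test, with Benjamini-Hochberg adjustment over all 18163 genes tested. Between KO and WT cTECs 3 of the 10 members were called, against 17.5% of all genes. Of these, 1 was higher, against 5.10% of all genes, and 2 were lower, against 12.4%. In KO mTECs no member was called, beside 0% of all genes, and Mcl1 was not called there either. Between the WT populations 3 members were called lower in mTECs, against 13.9% of all genes, and 1 was called higher, against 13.2%.

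**Figure D1:**
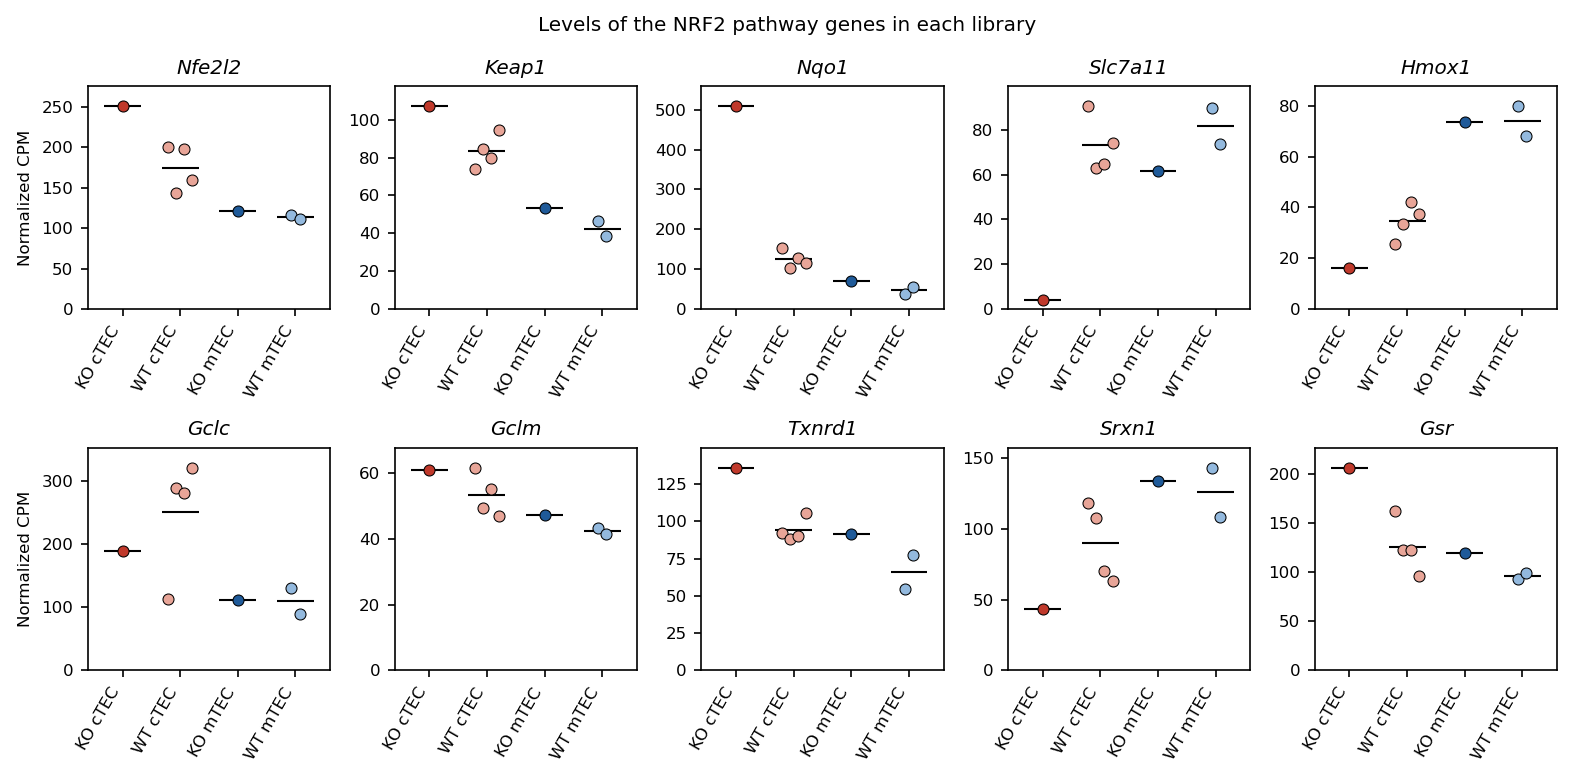
Normalized CPM (y axis, from 0) of the 10 genes, with KO cTECs, WT cTECs, KO mTECs and WT mTECs from left to right. Each point is 1 library and each line a group mean. The KO cTEC point is above all 4 WT cTEC points for Nqo1 (509 CPM) and below all of them for Slc7a11 (3.98 CPM).

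**Figure D2:**
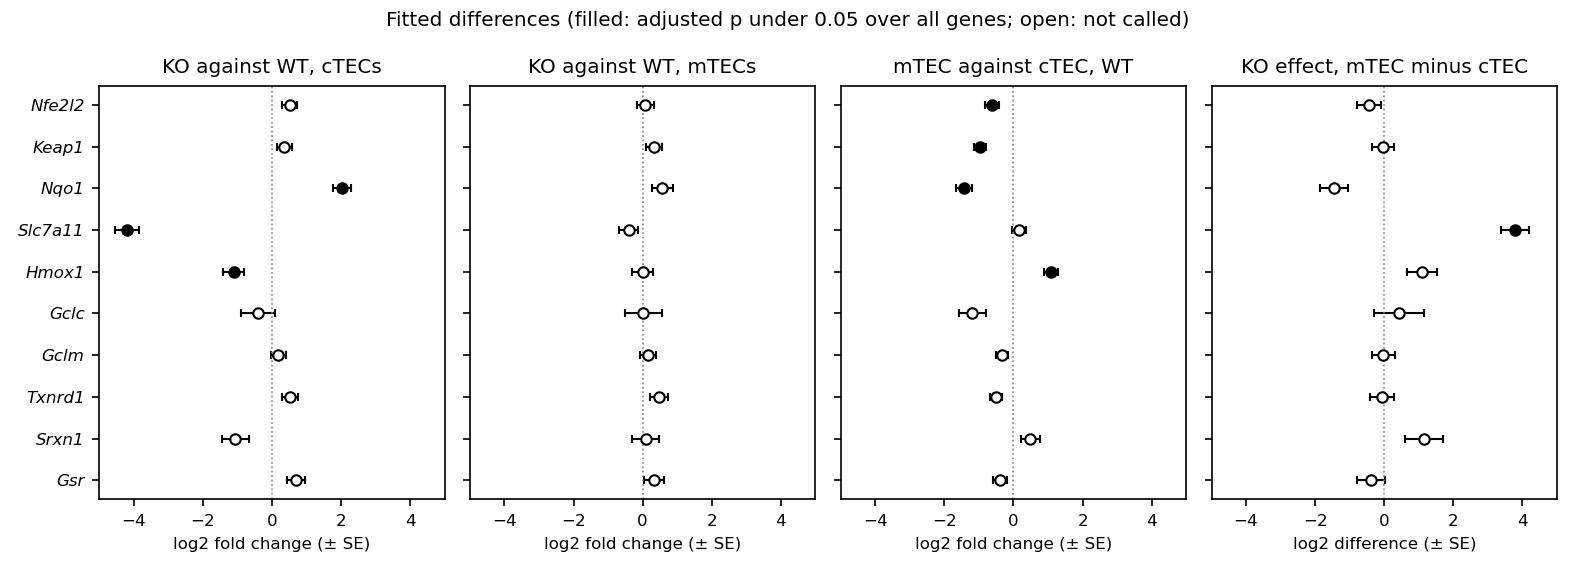
Fitted log2 fold changes with SE for the 10 genes, 1 comparison per panel, with the difference of the KO effects (mTEC minus cTEC) in the right panel. Filled points were called over all genes: Nqo1, Slc7a11 and Hmox1 in cTECs, none in KO mTECs, Nfe2l2, Keap1, Nqo1 and Hmox1 between WT populations, and Slc7a11 for the difference.

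The regulators were the first group. Nfe2l2 (Entrez 18024, chr2:75675513-75704663, mm10) was at 251 CPM in KO cTECs, against 200.1, 143, 198 and 159 CPM in WT cTECs 1 to 4. It was at 121 CPM in KO mTECs, against 117 and 112 CPM in WT mTECs 1 and 2. Each KO library lay above all WT libraries of its population, by little in mTECs, and neither difference was called. The log2 fold change was 0.52 ± 0.22 (SE) in cTECs (adjusted p = 0.152) and 0.08 ± 0.25 in mTECs (adjusted p = 0.975). Keap1 (Entrez 50868, chr9:21229730-21239332), which encodes the inhibitor, was at 107 CPM in KO cTECs, against 74.0, 84.8, 79.7 and 94.5 CPM in WT cTECs. It was at 53.2 CPM in KO mTECs, against 46.4 and 38.4 CPM in WT mTECs. Keap1 showed the same order as Nfe2l2, and again neither difference was called, with log2 fold changes of 0.36 ± 0.21 in cTECs (adjusted p = 0.269) and 0.33 ± 0.23 in mTECs (adjusted p = 0.784). Per kilobase of gene length, the level of Nfe2l2 was 4.24 times that of Keap1 in KO cTECs and 3.05 to 4.90 times in WT cTECs. In mTECs this ratio was 4.12 in the KO library and 4.55 to 5.26 in WT. The ratio in KO cTECs lay inside the WT range.

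RefSeq promoter windows (build GRCm38.p6, the assembly of mm10) were found for 7 members, in 9 windows, and none was found for Hmox1, Gclc and Gsr. The 250 bases before each start were searched on both strands for the core of the antioxidant response element, TGACNNNGC, for the AP-1 motif TGANTCA and for the core of the amino acid response element, TGATGNAA. TGACNNNGC, the only spelling of the antioxidant core that was searched, occurred in 1 window each of Nfe2l2, Gclm and Txnrd1, and in 10.2% of all 32851 windows. These 3 stretches are shown because they hold the element that the pathway is defined by, in capitals. They lie at chr2:75704879-75704913 on the minus strand for Nfe2l2, at chr3:122245407-122245447 on the plus strand for Gclm and at chr10:82859098-82859138 on the plus strand for the second start of Txnrd1. A match is a description of letters and not a measured binding site.
Nfe2l2: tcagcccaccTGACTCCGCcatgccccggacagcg
Gclm: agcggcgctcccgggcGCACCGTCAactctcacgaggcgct
Txnrd1: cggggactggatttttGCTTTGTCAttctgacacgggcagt

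Cystine import gave the largest change among the 10 members in KO cTECs. Slc7a11 (Entrez 26570, chr3:50364936-50499087) encodes xCT, the transporter that brings in the cystine from which glutathione is made. It was at 3.98 CPM in KO cTECs (62 counts), against 90.5, 63.0, 64.8 and 74.0 CPM in WT cTECs. It was at 61.5 CPM in KO mTECs, against 89.6 and 73.4 CPM in WT mTECs. The KO library was the lowest in each population, far below WT in cTECs and just below it in mTECs. In cTECs the log2 fold change was -4.19 ± 0.35 (adjusted p = 0.000228), and without any 1 WT library it stayed between -4.26 and -4.08. In mTECs it was -0.41 ± 0.28 (adjusted p = 0.775). The KO effect differed between the populations by 3.79 ± 0.41 (mTEC minus cTEC, adjusted p = 0.00144). Slc7a11 was the 1 member of 10 called for this difference, which was called for 6.81% of all genes, 6.16% above 0 and 0.644% below. Slc3a2, whose product is the heavy chain that xCT pairs with, was at 331 CPM in KO cTECs, against 251, 303, 324 and 315 CPM in WT cTECs, and was not called (0.15 ± 0.20, adjusted p = 0.641).

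The promoter of Slc7a11 is shown because this gene is also a textbook target of ATF4, a factor of the integrated stress response. Its 250 bases before the start (chr3:50443614-50443863, minus strand, RefSeq) held 2 matches to TGATGNAA, in capitals, that begin 66 and 47 bases before the start and lie on opposite strands. That motif occurred in 3.45% of all windows and in no other member window. TGACNNNGC was not in this stretch. The start used lies within the annotated span of the gene, which reaches further upstream.
Slc7a11: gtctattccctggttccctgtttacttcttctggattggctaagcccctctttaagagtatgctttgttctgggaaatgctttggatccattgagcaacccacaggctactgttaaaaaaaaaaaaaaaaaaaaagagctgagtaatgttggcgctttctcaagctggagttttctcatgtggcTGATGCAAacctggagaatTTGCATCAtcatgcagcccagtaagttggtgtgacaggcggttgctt

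Markers of other cell types moved with Slc7a11 in the cortex. All 12 tuft cell markers were called lower in KO cTECs, with a sum of 43.1 CPM, against 1556 to 2317 CPM in WT cTECs, and Trpm5, Gnat3, Rgs13 and Hepacam2 had no count in KO cTECs. In mTECs the sum was 1022 CPM in the KO library and 1185 to 1294 CPM in WT. The 8 mTEC markers other than keratins, which share Trpm5 with the tuft list, summed to 6.30 CPM in KO cTECs, against 1374 to 1468 CPM in WT cTECs. The keratins Krt5 and Krt14 of the mTEC list lay inside the WT cTEC range. The median log2 fold change was -8.13 over the tuft list and -7.63 over the mTEC list, and -4.10 over 6 B cell markers tested. In bulk RNA, fewer cells of a type and less RNA per cell cannot be told apart. The part of these markers in the level of Slc7a11 was not tested.

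The enzyme that makes the first bond of glutathione has a catalytic subunit, Gclc (Entrez 14629, chr9:77754535-77794489), and a modifier subunit, Gclm (Entrez 14630, chr3:122245487-122267215). Gclc was at 190.1 CPM in KO cTECs, against 113, 289.7, 281 and 321 CPM in WT cTECs 1 to 4. It was at 111 CPM in KO mTECs, against 129.9 and 90.2 CPM in WT mTECs. The KO value lay inside the WT range in each population, and WT cTEC 1 was far below the other 3 WT cTEC libraries. The cTEC difference was not called (-0.40 ± 0.50, adjusted p = 0.611). It turned to 0.66 when WT cTECs 2 to 4 were left out, a fit with 1 library in each cTEC group. Over the other alternatives the adjusted p ran from 0.0882 to 0.766. Immediate-early and dissociation genes moved with Gclc. Their sum was 13853 CPM in KO cTECs, against 5769.7, 40853, 30708 and 35398 CPM in WT cTECs 1 to 4, and 8821 CPM in KO mTECs, against 7915 and 3324 CPM in WT mTECs. Their part in the level of Gclc was not tested.

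Gclm was at 60.8 CPM in KO cTECs, against 61.5, 49.2, 55.2 and 47.0 CPM in WT cTECs. It was at 47.2 CPM in KO mTECs, against 43.1 and 41.3 CPM in WT mTECs. KO and WT overlapped in cTECs and were a few CPM apart in mTECs, and neither difference was called (0.19 ± 0.22, adjusted p = 0.573 in cTECs and 0.16 ± 0.24, adjusted p = 0.926 in mTECs). Per kilobase, the level of Gclc was 1.34 times that of Gclm in KO cTECs, against 0.789, 2.53, 2.19 and 2.93 times in WT cTECs 1 to 4.

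**Figure D3:**
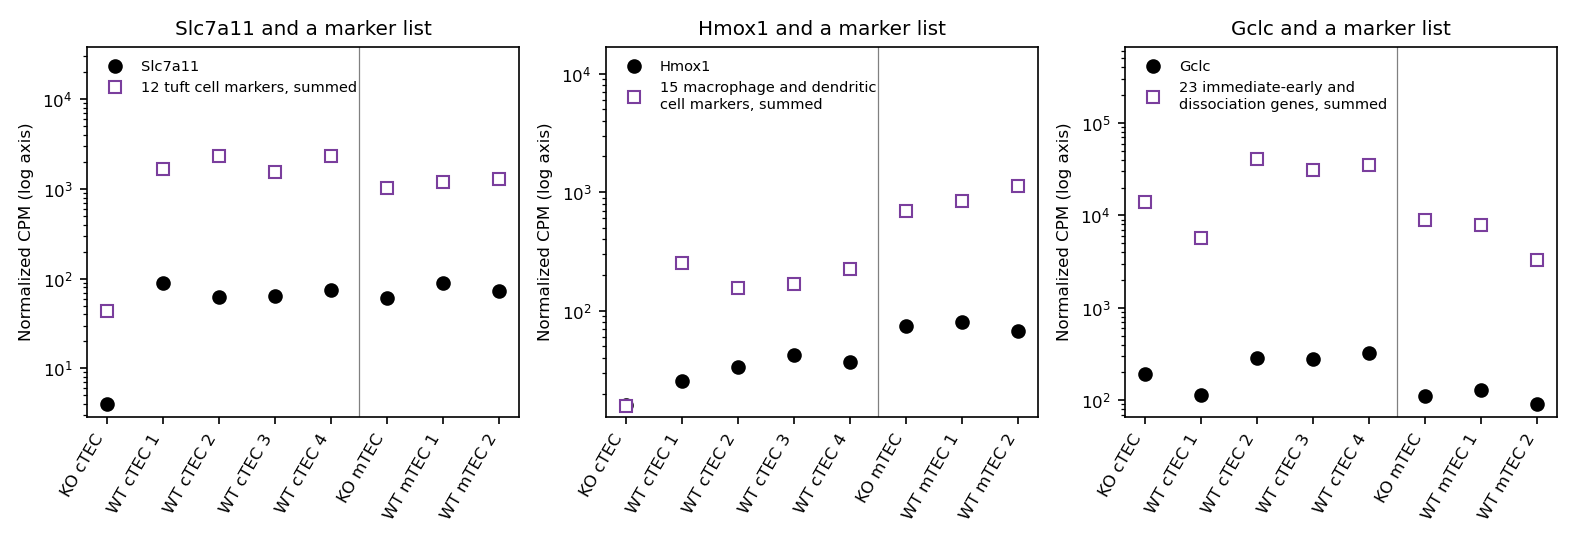
Normalized CPM on a log axis in each of the 8 libraries for Slc7a11, Hmox1 and Gclc (filled circles), beside the summed CPM of tuft cell markers, of macrophage and dendritic cell markers, and of immediate-early and dissociation genes (open squares). Slc7a11 and the tuft markers are both lowest in KO cTECs, as are Hmox1 and the macrophage markers, and Gclc and the immediate-early genes are both higher in WT cTECs 2 to 4 than in the other 5 libraries.

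Of the recycling enzymes, none was called with the knockout. Gsr (Entrez 14782, chr8:33653238-33698162), glutathione reductase, was at 207 CPM in KO cTECs, against 163, 123, 123 and 96.5 CPM in WT cTECs. It was at 120.3 CPM in KO mTECs, against 93.2 and 98.96 CPM in WT mTECs. Both KO libraries lay above the WT libraries of their population. The difference was 0.71 ± 0.26, adjusted p = 0.0948 in cTECs and 0.32 ± 0.29, adjusted p = 0.841 in mTECs, on the log2 scale. In cTECs it was called without WT cTEC 1 (0.86, adjusted p = 0.0156), over a range of 0.0156 to 0.423. Txnrd1 (Entrez 50493, chr10:82833951-82897724), cytosolic thioredoxin reductase, was at 136 CPM in KO cTECs, against 92.2, 88.1, 90.2 and 105 CPM in WT cTECs. It was at 91.5 CPM in KO mTECs, against 54.7 and 77.6 CPM in WT mTECs. The KO library was the highest in each population, with log2 fold changes of 0.53 ± 0.23 in cTECs (adjusted p = 0.145) and 0.47 ± 0.25 in mTECs (adjusted p = 0.682).

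Srxn1 (Entrez 76650, chr2:152105524-152111376) encodes sulfiredoxin, which restores over-oxidized peroxiredoxins. It was at 43.1 CPM in KO cTECs, against 119, 107, 70.2 and 63.2 CPM in WT cTECs. It was at 134 CPM in KO mTECs, against 143 and 108 CPM in WT mTECs. The KO value was below all WT values in cTECs and between them in mTECs. The cTEC difference was not called (-1.06 ± 0.39, adjusted p = 0.101), though it was with DESeq2 (adjusted p = 0.0306). It was -1.55 when WT cTECs 2 to 4 were left out, a fit with 1 library in each cTEC group. Over the other alternatives the adjusted p ran from 0.0306 to 0.163. Its promoter window held the AP-1 motif TGANTCA at 102 and 45 bases before the start, a motif found in 6.75% of all windows and in no other member window. The match at 45 bases is followed by GC and differs from TGACNNNGC only by a G after TGA, a spelling that was not searched.

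Among the detoxifying enzymes, Nqo1 (Entrez 18104, chr8:107388225-107403205), a quinone reductase, was the 1 member of the 10 called higher with the knockout. It was at 509 CPM in KO cTECs, against 153, 103, 128 and 115 CPM in WT cTECs. It was at 68.9 CPM in KO mTECs, against 38.0 and 55.1 CPM in WT mTECs. KO cTECs stood far above every WT library, and KO mTECs were above both WT mTEC libraries but below all WT cTECs. In cTECs the log2 fold change was 2.03 ± 0.25 (adjusted p = 0.00116), and it stayed between 1.95 and 2.14 without any 1 WT library. In mTECs it was 0.57 ± 0.30 (adjusted p = 0.675). In the same KO cTEC library mTEC markers were lower and cTEC, pan-epithelial and erythroid markers were higher (7 of 10, 4 of 10, 4 of 8 and 4 of 6 tested were called), and WT mTECs held less Nqo1 than WT cTECs. The part of these markers in the level of Nqo1 was not tested. The difference of the KO effects, -1.46 ± 0.41 (mTEC minus cTEC), was not called (adjusted p = 0.0796), though it was with DESeq2 (adjusted p = 0.0146) and without WT cTEC 1 (adjusted p = 0.0281), over a range of 0.0146 to 0.233.

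Nqo1 made up 33.4% of the CPM summed over the 10 genes in KO cTECs, against 9.51 to 14.0% in WT cTECs, and 7.80% in KO mTECs, against 4.55 to 7.22% in WT mTECs. Without Nqo1 the other 9 genes summed to 1015 CPM in KO cTECs, against 938 to 1005 CPM in WT cTECs. The ratio of Nqo1 to Slc7a11 in CPM was 128 in KO cTECs, against 1.55 to 1.98 in WT cTECs, and 1.12 in KO mTECs, against 0.424 to 0.750 in WT mTECs. The ratio was thus nearly the same in the 4 WT cTEC libraries, including WT cTEC 1.

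The upstream stretch of Nqo1 is shown beside that of Slc7a11, since these genes moved furthest among the members in KO cTECs and in opposite directions. None of the 3 motifs was found in the 250 bases before its start (chr8:107403206-107403455, minus strand, RefSeq), which says only that these letters are not in this window.
Nqo1: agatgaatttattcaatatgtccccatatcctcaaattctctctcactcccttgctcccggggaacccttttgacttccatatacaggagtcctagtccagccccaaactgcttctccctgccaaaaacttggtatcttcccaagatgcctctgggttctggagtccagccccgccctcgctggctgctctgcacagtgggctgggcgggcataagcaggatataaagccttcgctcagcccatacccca

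By the mean absolute difference of centred log2 CPM over the 8 libraries, the genes most like Nqo1 among 16315 compared were Maged2 (0.139), Pitrm1 (0.170) and Trib2 (0.201), while the median gene differed by 0.903. Nfe2l2 was the nearest member, at 0.468. For Txnrd1 the most alike were Sf3b2 (0.0855), Hyi (0.0902) and Gatc (0.0913), the nearest member was Gsr (0.200), and the median gene differed by 0.499.

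Hmox1 (Entrez 15368, chr8:75093618-75100593) encodes haem oxygenase 1, which breaks down haem and is abundant in macrophages. It was at 16.1 CPM in KO cTECs, against 25.4, 33.6, 42.1 and 37.2 CPM in WT cTECs. It was at 73.8 CPM in KO mTECs, against 79.8 and 67.9 CPM in WT mTECs. The KO library was the lowest in cTECs and lay between the WT libraries in mTECs. In cTECs the log2 fold change was -1.11 ± 0.31 (adjusted p = 0.0430), and in mTECs it was 0.00 ± 0.31 (adjusted p = 1.000). The cTEC call was narrow. Its adjusted p was 0.0706, 0.0747 and 0.0651 without WT cTEC 2, 3 or 4, 0.0788 and 0.0759 without WT mTEC 1 or 2, and 0.0971 with limma-voom, over a range of 0.00719 to 0.0971. The 15 macrophage and dendritic cell markers summed to 15.8 CPM in KO cTECs, against 157 to 255 CPM in WT cTECs, and to 696 CPM in KO mTECs, against 843 to 1129.6 CPM in WT mTECs. Lyz2 made up most of the sum in each library, at 9.25 CPM in KO cTECs, against 121 to 223 CPM in WT cTECs. In KO cTECs Adgre1, Cd163, Fcgr1, Flt3 and Xcr1 had no count, but they reached at most 2.78 CPM in any WT cTEC library. In WT cTECs 1 and 4, 4 and 6 of the 15 markers had no count. Of 11 markers tested 4 were called lower in KO cTECs. Their part in the level of Hmox1 was not tested.

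The position of the KO library can be read without a test. In cTECs and in mTECs alike it was above all WT libraries of the same population for Nfe2l2, Keap1, Nqo1, Txnrd1 and Gsr, and below all of them for Slc7a11. That is 6 of the 10 members on the same side in both populations, against 34.5% of all genes tested, 5 of them above, against 16.9%, and 1 below, against 17.7%. In cTECs alone the KO library lay outside the WT range for 8 members, against 61.9% of all genes. It was above for 5, against 29.0%, and below for 3, against 32.9%. In mTECs it lay outside for 7 members, against 80.4% of all genes, 6 above, against 38.6%, and 1 below, against 41.7%. The median log2 fold change of the 10 members was 0.28 in cTECs and 0.12 in mTECs, beside -0.14 and -0.03 over all genes. In KO mTECs edgeR called none of the 18163 genes (0%), and 1502 of them (8.27%) had an unadjusted p under 0.05, none of them a member. DESeq2 called 139 genes there and limma-voom 0, with no member in either.

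Between WT mTECs and WT cTECs the regulators and Nqo1 were lower in mTECs and Hmox1 was higher. The 4 calls among 10 members stand beside 27.0% of all genes called, 13.2% higher and 13.9% lower. Nqo1 averaged 46.5 ± 12.05 CPM in mTECs (SD, n = 2) and 125 ± 21.5 CPM in cTECs (SD, n = 4), with -1.42 ± 0.23, adjusted p = 0.00487 on the log2 scale. Keap1 averaged 42.4 ± 5.67 CPM in mTECs and 83.2 ± 8.71 CPM in cTECs (-0.97 ± 0.17, adjusted p = 0.00674). Nfe2l2 averaged 114 ± 3.54 CPM in mTECs and 175 ± 28.5 CPM in cTECs (-0.62 ± 0.19, adjusted p = 0.0404). None of these 3 overlapped between the WT groups. Hmox1 averaged 73.9 ± 8.40 CPM in mTECs and 34.6 ± 7.04 CPM in cTECs (1.09 ± 0.21, adjusted p = 0.00925), and its groups did not overlap either. Macrophage and dendritic cell markers were higher in the mTEC libraries, with 8 of 11 tested called, and their part in the Hmox1 difference was not tested. Of 23 immediate-early and dissociation genes 13 were called lower in WT mTECs and 0 higher. Their sum was 3324 to 7915 CPM in WT mTECs, against 5769.7 to 40853 CPM in WT cTECs. Tuft cell markers summed to 1185 to 1294 CPM in WT mTECs, against 1556 to 2317 CPM in WT cTECs. The part of both lists in the Nqo1, Keap1 and Nfe2l2 differences was not tested.

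These calls rest on 2 mTEC libraries. Without WT mTEC 1 the adjusted p was 0.178 for Nfe2l2, 0.0545 for Nqo1 and 0.0867 for Hmox1. Without WT mTEC 2 it was 0.238 for Nfe2l2, 0.0965 for Keap1 and 0.0646 for Hmox1. Nfe2l2 also lost its call without WT cTEC 3 (adjusted p = 0.0985). Some alternatives kept 2 or more libraries in each WT group. Over these the adjusted p ran from 0.0204 to 0.139 for Nfe2l2 and from 5.01e-05 to 0.0531 for Keap1. It ran from 2.15e-07 to 0.0285 for Nqo1 and from 5.86e-05 to 0.0281 for Hmox1. Gclc averaged 110.1 ± 28.1 CPM in mTECs and 251 ± 93.7 CPM in cTECs and was not called (-1.19 ± 0.40, adjusted p = 0.0561). It was called without WT cTEC 1 (-1.43, adjusted p = 0.00119) and with DESeq2, over a range of 0.00119 to 0.337 in the same alternatives. Txnrd1 (-0.51 ± 0.18, adjusted p = 0.0745), Gclm (-0.34 ± 0.17, adjusted p = 0.178), Gsr (-0.39 ± 0.21, adjusted p = 0.196), Srxn1 (0.49 ± 0.27, adjusted p = 0.217) and Slc7a11 (0.16 ± 0.19, adjusted p = 0.572) were not called. The WT groups did not overlap for 6 members, against 55.0% of all genes. Of these, 5 were lower, against 24.7%, and 1 was higher, against 30.3%.

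The order of the members can be read per kilobase of gene length. In KO cTECs Nqo1 led at 328 CPM per kb, followed by Nfe2l2 at 102 and Gsr at 77.4 CPM per kb. In WT cTECs Nqo1 (80.4 ± 13.9 CPM per kb, SD, n = 4), Gclc (73.3 ± 27.4) and Nfe2l2 (70.9 ± 11.5) led and did not differ beyond their spread. In KO mTECs Srxn1 (51.8 CPM per kb), Nfe2l2 (49.0) and Hmox1 (46.8) led. In WT mTECs Srxn1 (48.7 ± 9.54 CPM per kb, SD, n = 2), Hmox1 (46.9 ± 5.33) and Nfe2l2 (46.3 ± 1.43) led, again within their spread. Slc7a11 was the lowest of the 10 in each group, at 0.432 CPM per kb in KO cTECs, 7.92 ± 1.36 in WT cTECs, 6.67 in KO mTECs and 8.83 ± 1.24 CPM per kb in WT mTECs.

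A further 125 genes of the pathway were read in 9 lists, and 124 passed the filter. In KO cTECs 12 were called higher and 16 lower, beside 5.10% and 12.4% of all genes. Of 24 genes named by a fixed rule of size, 16 kept their call when each WT library was left out in turn, and the called genes given here for KO cTECs, except Sesn2, are among them. Differences in parentheses are on the log2 scale. Of 22 glutathione transferases 6 were higher and 3 lower. Gstm2, of the mu class, was at 255 CPM in KO cTECs, against 64.2 to 74.9 CPM in WT cTECs (1.87 ± 0.17, adjusted p = 0.000309). It was at 37.6 CPM in KO mTECs, against 15.8 ± 0.300 CPM in WT mTECs (SD, n = 2), and was not called there (1.25 ± 0.21, adjusted p = 0.180). Mgst3, a microsomal transferase, was at 15.9 CPM in KO cTECs, against 64.9 to 88.1 CPM in WT cTECs (-2.26 ± 0.29, adjusted p = 0.00148). Transferases of 1 class resemble each other, so reads of near-identical copies may have been split and their counts are uncertain.

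Of 15 genes that make, use or recycle glutathione, 4 were lower in KO cTECs and none was higher. Gpx3, an extracellular glutathione peroxidase, was at 22.4 CPM in KO cTECs, against 1005 to 1577 CPM in WT cTECs (-5.80 ± 0.43, adjusted p = 0.000159). In KO mTECs it was at 635 CPM, against 745 and 567 CPM in WT mTECs. Ggt5, a gamma-glutamyltransferase, was at 36.9 CPM in KO cTECs, against 116 to 175 CPM in WT cTECs (-2.09 ± 0.31, adjusted p = 0.00277). Gpx4, which protects membrane lipids, was chosen for that role with its values known. It was at 71.7 CPM in KO cTECs, against 73.5 to 81.0 CPM in WT cTECs, and was not called (-0.12 ± 0.19, adjusted p = 0.686).

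Of 22 genes that act on quinones, aldehydes and other compounds, 2 were higher and 3 lower in KO cTECs. Aldh7a1, an aldehyde dehydrogenase, was at 188 CPM in KO cTECs, against 59.6 to 83.3 CPM in WT cTECs (1.38 ± 0.22, adjusted p = 0.00424). Ugdh, which makes UDP-glucuronate, was at 281 CPM in KO cTECs, against 95.1 to 128 CPM in WT cTECs (1.34 ± 0.21, adjusted p = 0.00361). Osgin1, a growth inhibitor induced by oxidative stress, was at 3.53 CPM in KO cTECs, against 14.3 to 24.8 CPM in WT cTECs (-2.41 ± 0.41, adjusted p = 0.00585). Akr1c13, an aldo-keto reductase, was at 0.450 CPM in KO cTECs, against 11.3 to 18.3 CPM in WT cTECs (-4.98 ± 0.52, adjusted p = 0.000566). Of 8 export pumps 2 were lower. Abcc1 was at 27.0 CPM in KO cTECs, against 58.9 to 78.4 CPM in WT cTECs (-1.35 ± 0.23, adjusted p = 0.00590), and Abcc3 was at 1.09 CPM in KO cTECs, against 15.5 to 28.2 CPM in WT cTECs (-4.48 ± 0.52, adjusted p = 0.000992). Calls went both ways among the detoxifying genes and the transferases, and only downwards among the export pumps and the glutathione list. The lists are short, and over all genes 12.4% were called lower and 5.10% higher, so these directions were not read as a trait of the lists.

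The calls of the remaining lists in KO cTECs stand beside 17.5% of all genes called, 5.10% higher and 12.4% lower. Of 14 thioredoxin and peroxiredoxin genes 2 were higher, among them Selenos, a selenoprotein of the endoplasmic reticulum, at 81.0 CPM in KO cTECs, against 43.9 to 45.0 CPM in WT cTECs (0.87 ± 0.17, adjusted p = 0.0101). None of 10 genes of NADPH supply was called. Of 15 further regulators 1 was higher and 2 were lower. The higher one was Sesn2, a stress-induced sestrin, at 62.5 CPM in KO cTECs, against 27.8 to 39.5 CPM in WT cTECs (0.92 ± 0.24, adjusted p = 0.0316), and its adjusted p reached 0.0643 over a range from 0.00632, with the call lost without WT cTEC 3, WT mTEC 1 or WT mTEC 2. Of 10 haem and iron genes 1 was higher and 1 lower, and of 8 superoxide and peroxide genes tested 1 was lower. That gene was Cyba, a subunit of NADPH oxidases that phagocytes also express, at 5.98 CPM in KO cTECs, against 87.6 to 157 CPM in WT cTECs (-4.41 ± 0.43, adjusted p = 0.000452). The part of the tuft, mTEC, B cell, thymocyte, and macrophage and dendritic cell markers, which were also lower in KO cTECs, in the calls of these 9 lists was not tested. In KO mTECs none of the 124 was called, beside 0% of all genes.

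**Figure D4:**
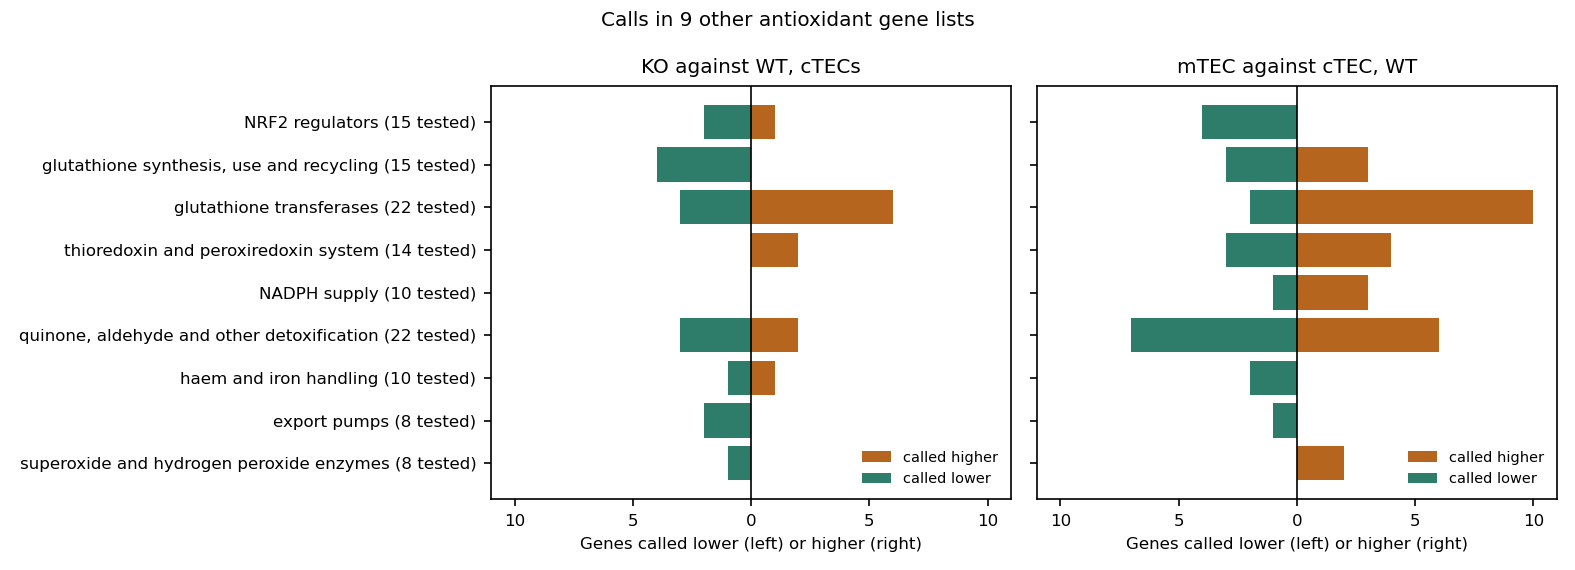
Number of genes called lower (left of 0) or higher (right of 0) in each of 9 other antioxidant lists, for KO against WT cTECs (left) and for mTECs against cTECs in WT (right). Glutathione transferases hold the most higher calls in both panels, 6 and 10 of 22.

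Between the WT populations 28 of the 124 genes were higher and 23 lower in mTECs, beside 13.2% and 13.9% of all genes. Of 35 genes named by the rule 10 kept their call without each WT library in turn, and the genes given here are among them (SD, n = 2 mTEC and n = 4 cTEC libraries). Gpx1, the cytosolic glutathione peroxidase, averaged 1007 ± 106 CPM in mTECs and 476 ± 37.4 CPM in cTECs (1.08 ± 0.15, adjusted p = 0.00286). Cyba averaged 560.1 ± 23.8 CPM in mTECs and 127 ± 32.8 CPM in cTECs (2.14 ± 0.23, adjusted p = 0.00136). Lower in mTECs were Gstm2, which averaged 15.8 ± 0.300 CPM in mTECs and 69.5 ± 5.41 CPM in cTECs (-2.14 ± 0.17, adjusted p = 0.000626), and Ephx1, an epoxide hydrolase, which averaged 44.7 ± 3.72 CPM in mTECs and 144 ± 13.2 CPM in cTECs (-1.69 ± 0.17, adjusted p = 0.00107). Aldh1a1, which makes retinoic acid, averaged 3.05 ± 0.354 CPM in mTECs and 39.3 ± 8.50 CPM in cTECs (-3.68 ± 0.30, adjusted p = 0.000677).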

How the data were processed

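Raw counts per Entrez gene, 1 library per file, were deposited by the authors as whole numbers beside a gene length in bases. Per the submitters' processing notes, featureCounts and mm10 were used. The aligner, annotation, strand setting and versions were not stated in any source used here. Per the labels' protocols, cDNA was amplified from frozen pellets with a low-input kit, and no molecular identifiers are mentioned. A series-wide table with 8 columns that match no sample label was not used.

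Symbols, positions and promoters came from RefSeq tables of GRCm38.p6. Genes reaching a CPM of 1 in 2 or more libraries were kept. Counts were scaled by TMM and fitted in edgeR 4.0.16 (R 4.3.3) with 1 mean per group, using the robust two-sided quasi-likelihood F test, with Benjamini-Hochberg adjustment and a threshold of 0.05. The SE is the absolute log2 fold change divided by the square root of F. The fit was tested on simulated data for KO against WT cTECs (17406 genes, dispersion 0.03): it called 100% of genes changed 16-fold either way or raised 4-fold, 78.79% of those lowered 4-fold, 41.94% and 40.62% of those raised or lowered 2-fold, and 0.03% of unchanged genes. The simulation gave all groups the same means, apart from a small set of genes changed in KO cTECs, and every gene the same dispersion. The real groups differ in many more genes, so these shares do not carry over to the real libraries. Alternatives were RLE factors, DESeq2 1.42.0, limma-voom (limma 3.58.1), no filter, leaving out WT libraries, WT libraries only and a replicate block. Leaving out WT cTECs 2 to 4 together kept 1 WT cTEC library, so that fit measured no spread between cTECs. P-values measure the spread between the WT libraries only, since each KO group is 1 library.

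The members and lists were chosen with earlier results of these data known. The rule named all members, up to 3 called genes per direction, list and comparison, and the 3 genes most like Nqo1 and Txnrd1. The examples given were picked from these after their values were seen, and Slc3a2 and Gpx4 were added.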

Additional observations from a re-analysis of the deposited data

Results flagged for a closer look

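The KO effect on Slc7a11 differed between mTECs and cTECs by 3.79 on the log2 scale (edgeR interaction contrast, SE 0.41, adjusted p = 0.00144). The KO library was lower than 4 of 4 WT libraries in cTECs and than 2 of 2 in mTECs. The difference was tested with 1 KO library in each population.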

How the results depend on the processing

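In KO against WT cTECs, Nqo1 and Slc7a11 kept their direction under all 11 alternatives, as did the Slc7a11 difference of KO effects. In the alternatives with more than 1 WT cTEC library all of these kept their call (adjusted p up to 0.00452, 0.00335 and 0.0396). Counts of called genes moved with the tool and the libraries. For KO cTECs the count was 3179, with 1735 by limma-voom, 6078 without WT cTECs 2 to 4 and 2256 to 4182 without 1 library. For KO mTECs it was 0, with 139 by DESeq2, 734 without WT cTECs 2 to 4 and 0 to 7 without 1 library. Between WT populations it was 4912, and 603 to 6762 without 1 library, the lowest without WT mTEC 2. For the difference of KO effects it was 1236, with 2050 by DESeq2, 117 by limma-voom, 4110 without WT cTECs 2 to 4 and 649 to 1849 without 1 library. The labels number libraries 1 and 2 in each WT group but do not say that numbers pair them, and the numbers were not taken as pairs. Deviations of same-numbered libraries from their group means correlated at -0.146 and -0.019. With 2 WT mTEC libraries these deviations mirror each other, so the correlations cannot decide whether the libraries are paired. With the replicate block 2094 genes were called between the WT populations, and Nfe2l2 (adjusted p = 0.139) and Keap1 (adjusted p = 0.0531) were not called.

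Some signs turned, and the cause was not tested. Without WT cTECs 2 to 4, Gclc in KO cTECs was 0.66, Gclm in KO cTECs -0.11, Slc7a11 between WT populations -0.19, and the differences of KO effects were -0.63 for Gclc, 0.28 for Gclm, 0.01 for Txnrd1 and 0.08 for Gsr. Hmox1 in KO mTECs was 0.02 with RLE factors, 0.02 with DESeq2, 0.00 with limma-voom and 0.00 without WT cTECs 2 to 4. Leaving out 1 library gave -0.12 to 0.11 for Hmox1, -0.22 to 0.30 for Gclc and -0.10 to 0.30 for Srxn1 in KO mTECs, and, for the difference of KO effects, -0.17 to 0.10 for Keap1, -0.11 to 0.02 for Gclm and -0.30 to 0.21 for Txnrd1. The lowest count of a member in any library was 62, for Slc7a11 in KO cTECs.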

Other observations

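Among the 124 other pathway genes tested, the KO effect differed between the populations for 14, with 12 differences above 0 and 2 below (mTEC minus cTEC, edgeR), beside 6.16% and 0.644% of all genes. Of the 14 genes, 6 kept their call without each WT library in turn, among them Gpx3 (5.75 ± 0.49, adjusted p = 0.000615) and Cyba (4.65 ± 0.51, adjusted p = 0.00149). Cyba was at 661 CPM in KO mTECs, against 543 and 577 CPM in WT mTECs. Macrophage and dendritic cell markers, most of whose sum was Lyz2, were low in KO cTECs as well, at 15.8 CPM summed, against 157 to 255 CPM in WT cTECs. The part of these markers in the values above was not tested.

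Fech, the last enzyme of haem synthesis, was at 123 CPM in KO cTECs, against 72.8 to 82.8 CPM in WT cTECs (0.67 ± 0.18, adjusted p = 0.0348), and at 52.7 CPM in KO mTECs, against 32.7 and 30.1 CPM in WT mTECs (0.75 ± 0.20, adjusted p = 0.440). The cTEC call was lost when cTEC library 2 or 3, or either mTEC library, of the WT mice was left out, with limma-voom and without WT cTECs 2 to 4, and the adjusted p ran from 0.0140 to 0.126 over the alternatives. Erythroid markers were higher in the same KO libraries, at 647 CPM in KO cTECs, against 22.0 to 118 CPM in WT cTECs, and at 1517 CPM in KO mTECs, against 45.4 to 97.1 CPM in WT mTECs, and their part in the level of Fech was not tested.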
